A study of Mus musculus with 4 samples.

Results

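The phagocyte NADPH oxidase was followed in mouse spleen through 5 of its subunit genes, Cybb, Cyba, Ncf1, Ncf4 and Rac2. Its members were all probe sets whose only gene symbol in the array's annotation was one of these, which gave 6 of the 12488 probe sets on the array, 2 of them for Cyba and 1 for each other gene. The 5 genes stand among 8251 genes named by a probe set of 1 symbol. No probe set listed a member among several symbols.

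Total RNA came from spleens of female Nrf2 knockout mice (nrf2 -/-, 2 samples) and of female wild-type littermates (nrf2 +/+, 2 samples), all 5 months old and, per the labels, not yet at the stage of severe autoimmunity. Both genotypes descended from interbred heterozygotes, themselves from a cross of nrf2 -/- mice on a C57B6/129SVJ background with nrf2 +/+ mice on a C57B6/SJL background. The nrf2 -/- genotype was inherited, so it was not confined to 1 cell type of the spleen. The labels do not say whether a sample was 1 mouse or a pool, and p-values measure only how far these samples spread, which may be a technical spread.

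The oxidase of neutrophils, monocytes and macrophages reduces oxygen to superoxide, which is used to kill ingested microbes, and spends NADPH to do so. Cybb and Cyba encode the membrane-bound flavocytochrome, in which Cybb carries the electrons and Cyba stabilises it and docks the cytosolic part. Ncf1 and Ncf4 encode cytosolic subunits that move to the membrane on stimulation, and Rac2 is the GTPase that switches the assembled complex on. B cells also express several of these subunits, and Rac2 is expressed across blood cells. Nrf2 induces genes that remove the oxidants which the oxidase makes and that resupply NADPH.

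Promoter sequences are shown for the members that the RefSeq table for GRCm38.p6 holds, because Nrf2 acts at a short DNA element and PU.1, the product of Spi1, is the best known activator of oxidase genes in myeloid cells. The table held 3 of the 5 genes, each as a window of 250 bases before to 50 bases after the annotated start. All 3 lie on the minus strand and are written 5′ to 3′ in the direction of transcription, with capitals marking a PU.1 core.
Cybb, chrX:9469275-9469574: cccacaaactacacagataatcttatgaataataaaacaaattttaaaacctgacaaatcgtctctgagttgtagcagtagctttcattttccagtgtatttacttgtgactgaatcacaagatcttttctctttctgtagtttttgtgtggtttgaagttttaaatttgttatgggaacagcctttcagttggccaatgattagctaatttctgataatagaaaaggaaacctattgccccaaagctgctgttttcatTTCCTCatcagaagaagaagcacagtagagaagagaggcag
Cyba, chr8:122432891-122433190: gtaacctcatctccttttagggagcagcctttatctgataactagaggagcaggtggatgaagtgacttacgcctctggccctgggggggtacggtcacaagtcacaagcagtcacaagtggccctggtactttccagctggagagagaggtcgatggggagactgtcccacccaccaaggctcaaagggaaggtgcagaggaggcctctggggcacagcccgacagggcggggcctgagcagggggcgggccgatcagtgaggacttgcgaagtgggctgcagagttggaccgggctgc
Ncf1, chr5:134229576-134229875: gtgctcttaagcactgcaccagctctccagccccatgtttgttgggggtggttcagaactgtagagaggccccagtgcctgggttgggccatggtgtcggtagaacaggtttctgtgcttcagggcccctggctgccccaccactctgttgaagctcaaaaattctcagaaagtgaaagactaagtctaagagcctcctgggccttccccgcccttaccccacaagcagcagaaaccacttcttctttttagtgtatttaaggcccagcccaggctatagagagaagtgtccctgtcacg

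The core of the Nrf2 element was searched as TGACNNNGC on both strands and was in 0 of these 3 windows, against 12.4% of 32851 windows in the table. The PU.1 core was searched as GAGGAA on both strands, and it was in 1 of the 3, against 28.3% of all windows. This was the only match of either motif, so none overlapped. It was in Cybb, on the opposite strand, with its first base at position 10 after the start counted from 1. These matches and their absence describe the letters of the windows and say nothing of binding.

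Before the members, the 4 arrays were compared. The gene for Nrf2, Nfe2l2, read 202 and 178.6 in knockout mice, against 3537 and 6321 in wild-type mice, a separation that matches the labels, although the position of this probe set relative to the deletion is not stated. Wild-type replicate 1 stood apart, with correlations across tested probe sets of 0.849 to 0.851 with the 3 other arrays, while the highest correlation of each of the others lay between 0.941 and 0.947. There, 15.4% of tested probe sets were over 2-fold outside the range of the others, against at most 1.84% in any other array. The Gapdh control probe sets, whose 3′ over 5′ ratio rises as RNA or labelling degrades, gave ratios of 25.5 and 34.8 in the knockout arrays, against 88.3 in wild-type replicate 1 and 8.07 in the other wild-type array. The same ratio for beta-actin was 19.3 and 16.1 in the knockout arrays, against 14.4 and 8.86 in the wild-type arrays, which put both wild-type arrays below both knockout arrays on this control. No ratio of either control was under 8.07 on any of the 4 arrays, so an excess of 3′ signal was not confined to wild-type replicate 1. B cell and T cell markers, which define the spleen's lymphoid tissue, were all bright enough to test where they had a probe set (10 of 10 and 9 of 9 genes). Each member is therefore also given against each wild-type array alone.

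No oxidase subunit passed the test between genotypes. Values are intensities as deposited, and differences are knockout minus wild type on the log2 scale with values under a floor of 185 raised to it, which understates differences of dim genes. Of the 5 member probe sets tested, 0 had a limma adjusted p under 0.05 where 0.0537% of all 7453 tested probe sets were called. An unadjusted p under 0.05 was reached by 0 of the 5 and by 1.74% of all. All 5 measured lower in knockout spleen, by -0.42 to -0.16 with a median of -0.25, against 46.3% lower and a median of 0.04 over all tested probe sets. The adjusted p was 0.992 for each of the 5. In bulk RNA, fewer cells of a type and less RNA per cell cannot be told apart.

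**Figure D1:**
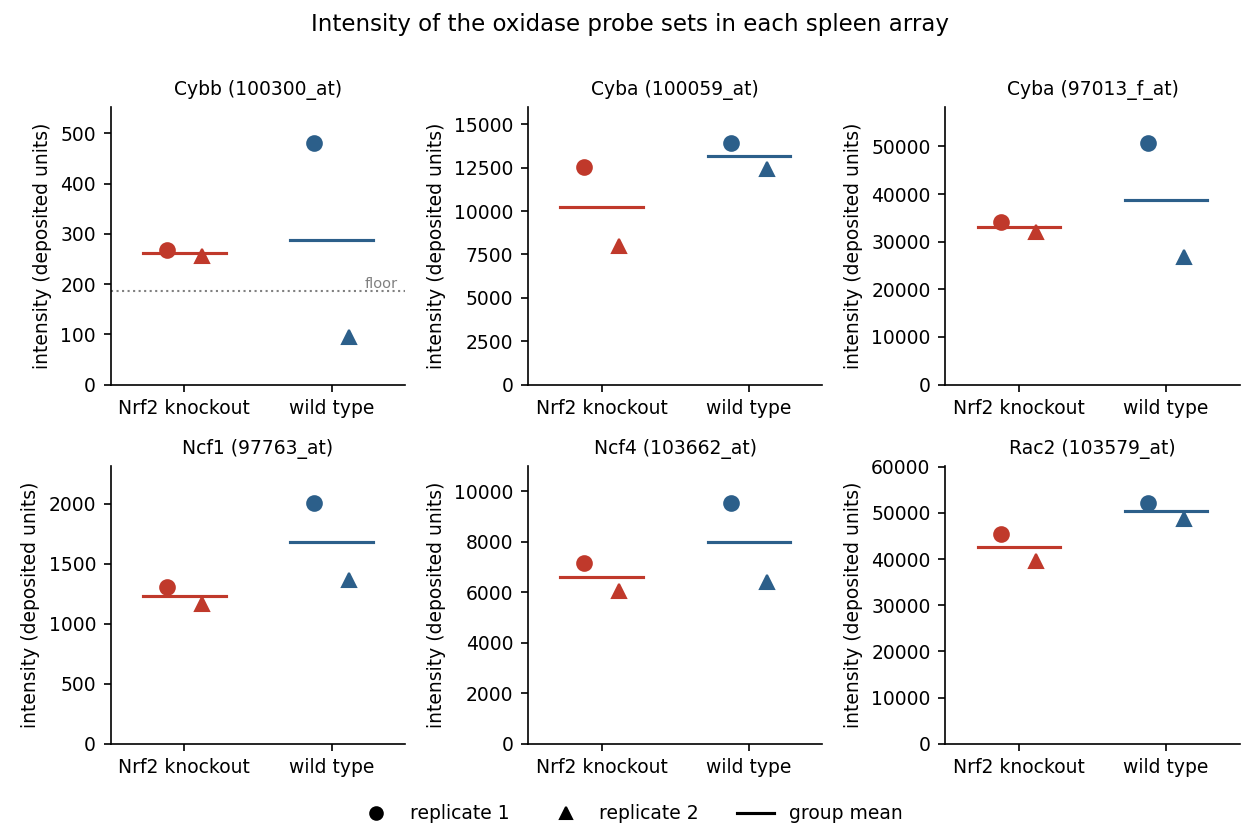
Intensity, in deposited units on linear axes that start at 0, of each oxidase probe set in the 2 knockout and 2 wild-type spleen arrays. Circles are replicate 1, triangles replicate 2 and lines group means; wild-type replicate 1 is the highest array in all 6 panels, and the groups are separate only for Ncf1 and Rac2.

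Of the flavocytochrome genes, Cybb, the catalytic subunit, was too dim to test, since its mean lay under the 40th percentile of all probe sets. It read 267 and 255.8 in knockout mice, against 479.8 and 94.3 in wild-type mice, and the last of these lies under the floor. The 2 wild-type arrays lay on either side of both knockout arrays and differed 5.09-fold from each other on the intensities as deposited. The log2 difference of -0.19 became 0.52 without wild-type replicate 1 and -0.88 without the other wild-type array, and it was 0.21 with a pseudocount in place of the floor, so no direction can be given for Cybb.

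Cyba, the partner that stabilises Cybb, had a pair of probe sets. The first, 100059_at, read 12558 and 7959 in knockout mice, against 13893 and 12407 in wild-type mice. Knockout replicate 2 was the low array here and knockout replicate 1 lay between the wild-type arrays, so the groups overlapped. Its log2 difference was -0.39 (n = 2 in each group, SE 0.43, 95% confidence interval -1.38 to 0.60, limma adjusted p = 0.992). It was -0.31 without wild-type replicate 1, -0.47 without the other wild-type array and -0.06 without knockout replicate 2.

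The other Cyba probe set, 97013_f_at, has a name ending that marks probes shared within a family of sequences. It read 34152 and 31979 in knockout mice, against 50624 and 26782 in wild-type mice, so both knockout arrays lay between the wild-type arrays. The log2 difference was -0.16 (SE 0.47, 95% confidence interval -1.25 to 0.94, limma adjusted p = 0.992). It turned to 0.30 without wild-type replicate 1 and was -0.62 without the other wild-type array. Quantile and loess scaling brought it to -0.008 and -0.06. The 2 Cyba probe sets thus placed their spread in different arrays. Knockout replicate 1 was 1.58-fold above knockout replicate 2 on the first and 1.07-fold on the second, and wild-type replicate 1 was 1.12-fold above wild-type replicate 2 on the first and 1.89-fold on the second.

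Among the cytosolic subunits, Ncf1, the organiser that bridges the complex to Cyba, read 1308 and 1163 in knockout mice, against 2011 and 1361 in wild-type mice. Both knockout arrays lay below both wild-type arrays, with knockout replicate 1 close under wild-type replicate 2. The log2 difference was -0.42 (SE 0.42, 95% confidence interval -1.39 to 0.54, limma adjusted p = 0.992), the largest of the 5. Without wild-type replicate 1 it was -0.14, and without the other wild-type array -0.71.

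Ncf4, which binds a membrane lipid of the phagosome and sustains the oxidase there, read 7138 and 6063 in knockout mice, against 9544 and 6398 in wild-type mice. Knockout replicate 1 lay above wild-type replicate 2, so the groups overlapped. The log2 difference was -0.25 (SE 0.42, 95% confidence interval -1.21 to 0.72, limma adjusted p = 0.992), and it was 0.04 without wild-type replicate 1 and -0.54 without the other wild-type array.

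Rac2, the GTPase of the complex, read 45425 and 39604 in knockout mice, against 52251 and 48655 in wild-type mice. The groups did not overlap, and the 4 arrays lay within 1.32-fold of each other. Only 11.3% of tested probe sets had a smaller range over the arrays, which for the other tested members was 29.6% to 49.5%. The log2 difference was -0.25 (SE 0.42, 95% confidence interval -1.23 to 0.73, limma adjusted p = 0.992), a level 0.841-fold that of wild type with an interval of 0.427-fold to 1.66-fold. The difference kept its sign against each wild-type array alone, at -0.20 without replicate 1 and -0.30 without replicate 2 of the wild type, and it was -0.16 and -0.12 with quantile and loess scaling.

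The groups were separate, with knockout lower, for 2 of the 5 tested probe sets (Ncf1 and Rac2) and for 12.2% of all tested probe sets. The exact two-sided permutation p was 0.333 for both, the smallest that 2 samples against 2 allow. The 5 tested member intervals together reached from a level 0.382-fold to one 1.92-fold that of wild type. Each interval covers only its own probe set. None is a limit of detection for the adjusted test, and differences inside them could not be told from 0 with this number of arrays.

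**Figure D2:**
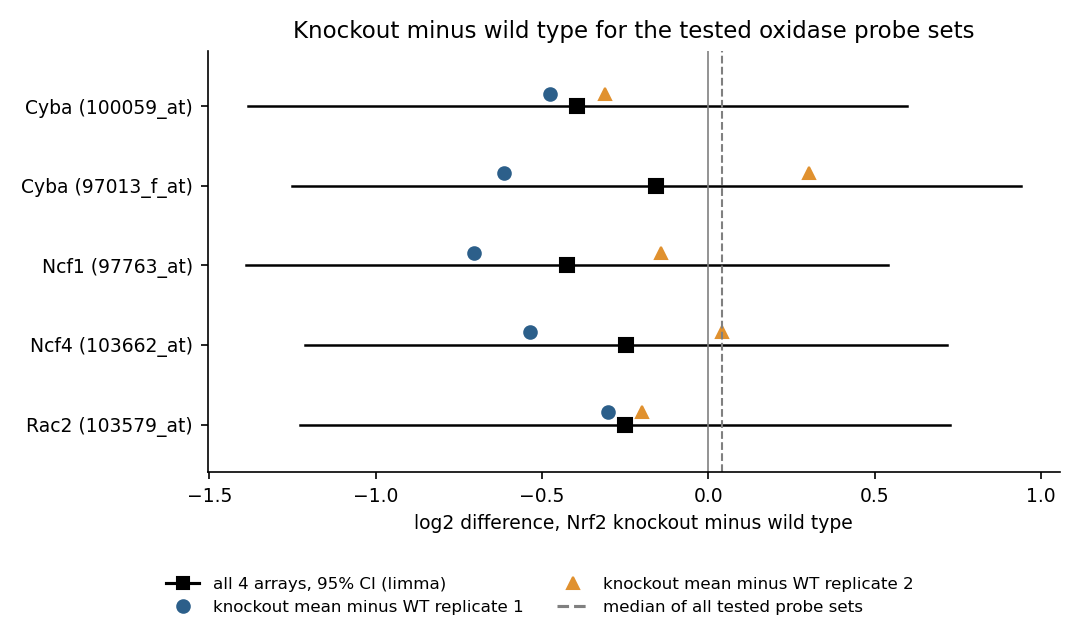
Difference on the log2 scale, knockout minus wild type, for the 5 tested oxidase probe sets: black squares and bars are limma estimates from all 4 arrays with 95% confidence intervals, circles and triangles the knockout mean minus wild-type replicate 1 or 2 alone. Every interval crosses 0, and against wild-type replicate 2 the Ncf4 and second Cyba probe sets lie at 0.04 and 0.30.

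The members also shared an order of the arrays within each genotype. This order was picked with their values in view, so the shares beside it are a description and not a test. The member probe sets counted here include both for Cyba and the untested Cybb. Wild-type replicate 1 was the highest array for all 6 member probe sets, against 37.3% of all tested probe sets, and was the lowest in 39.2% of them. Knockout replicate 2 was below knockout replicate 1 for all 6, against 50.8% of all tested probe sets. Both held together for 20.2% of tested probe sets. Without wild-type replicate 1, the number of member probe sets with a lower knockout mean was 3 of 6, against 6 of 6 with all 4 arrays (5 of 6 with a pseudocount in place of the floor, Cybb being the exception).

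Differences between members in this pattern were small for Ncf1 and Ncf4, whose array-centred log2 values differed by a root mean square of 0.09. The 2 Cyba probe sets differed most, by 0.35, although they are assigned to 1 gene. The second Cyba probe set was nearer to Ncf4 (0.14) and the first was nearest to Rac2 (0.18). These distances rest on 4 arrays and are given as a description.

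**Figure D3:**
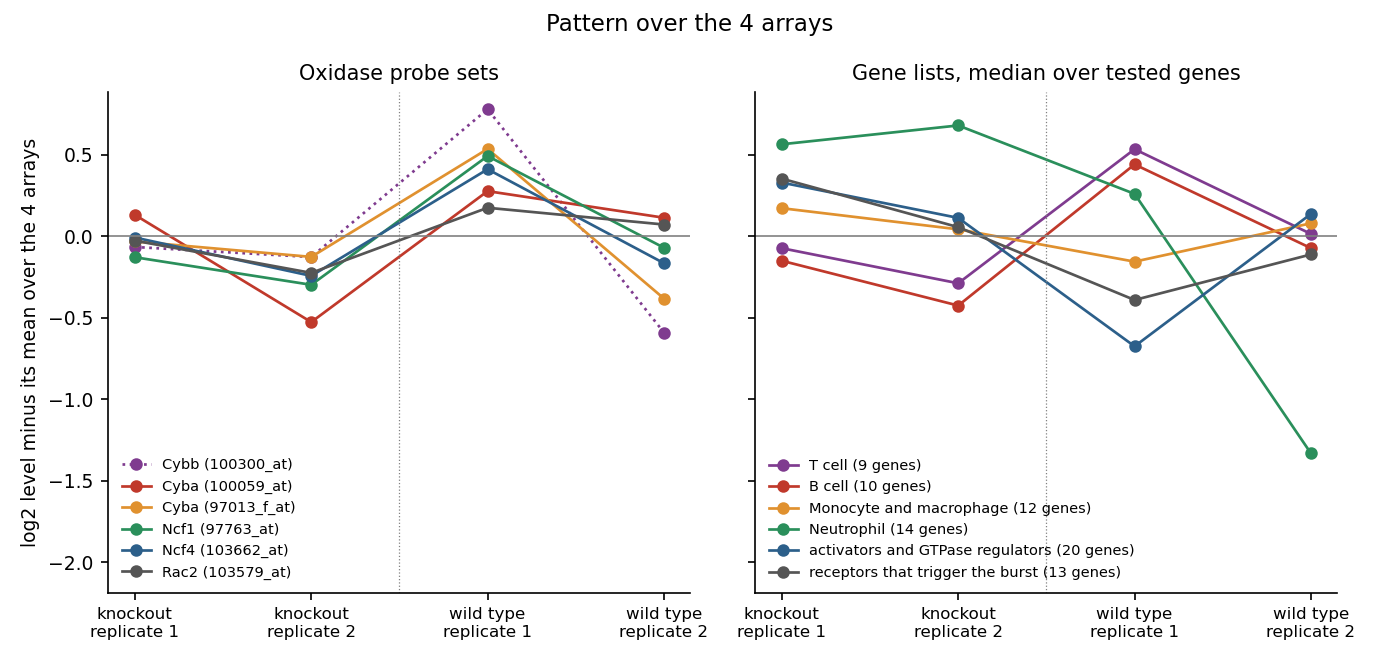
Log2 level in each array minus its mean over the 4 arrays, for the 6 oxidase probe sets (left; Cybb, dotted, was not tested) and as the median over the tested genes of 6 gene lists (right). Oxidase probe sets, T cell and B cell genes peak in wild-type replicate 1, where activator and receptor genes have their lowest point; neutrophil genes are lowest in wild-type replicate 2.

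Among other genes, those with the array pattern closest to the brightest tested probe set of Cyba, Ncf1, Ncf4 and Rac2 were named by the root mean square distance of array-centred log2 values over the 4 arrays, out of 6698 probe sets. For Cyba (97013_f_at) these were Mlycd, Mas1 and Myo7a, at 0.006 to 0.03. For Ncf1 they were Npc2, Psmc1 and Map2k5, at 0.01 to 0.03. Ncf4 had Ufm1, Inpp5k and Agap3, at 0.01 to 0.02, and Rac2 had Pgm1, Tprgl and Rab33b, at 0.02 to 0.03. The median distance over all candidates was 0.38 to 0.45. With 4 values per gene and this many candidates, close matches arise readily, and no shared role is implied.

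The other subunits and paralogues were then examined. Of 14 listed genes, 4 could be tested, of which 2 were above and 2 below wild type in knockout mice and 0 passed (limma, 0 also at an unadjusted p under 0.05). Without wild-type replicate 2, 1 of the 4 was above. Rac1, the widely expressed relative of Rac2, read 24998 and 25072 in knockout mice, against 11376 and 29133 in wild-type mice. Wild-type replicate 1 was thus the lowest array for Rac1 and the highest for Rac2. The log2 difference of Rac1 was 0.46 (limma adjusted p = 0.992), and it was -0.22 without wild-type replicate 1. Cybc1, a chaperone needed for the flavocytochrome, read 10527 and 9003 in knockout mice, against 10846 and 9959 in wild-type mice, a difference of -0.09. Rap1a, a small GTPase that copurifies with the flavocytochrome, gave -0.07 and, on a second probe set, 0.36, and Rap1b differed by 0.06, which turned negative under median, quantile and loess scaling. Rac3 lay under the floor on all 4 arrays.

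Genes that activate the oxidase were tested next. Of 20 activators and GTPase regulators, 18 measured higher and 2 lower in knockout mice, with a median difference of 0.46, and 0 passed (limma, 0 also at an unadjusted p under 0.05). Wild-type replicate 1 was the lowest array for 16 of the 20, and without it 9 of 20 measured higher, with a median of -0.06. The groups were separate with knockout higher for 6 of the 20, against 14.3% of all tested probe sets. They were separate with knockout lower for 0 of the 20, against 12.2% of all. Tiam1, an exchange factor that loads Rac with GTP, read 1453 and 1516 in knockout mice, against 414.6 and 1127 in wild-type mice (log2 difference 1.12, limma adjusted p = 0.992). It was 0.40 without wild-type replicate 1, and its other probe set was too dim to test. Fgr, a Src-family kinase of myeloid cells, differed by 0.68 (0.36 without wild-type replicate 1) and Prkcz, an atypical protein kinase C, by 0.64, with another tested Prkcz probe set at -0.34. Btk, a kinase of B cells and myeloid cells, read 9638 and 7423 in knockout mice, against 2168 and 9175 in wild-type mice. Its difference of 0.92 became -0.12 without wild-type replicate 1, and its other probe set was too dim to test.

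Of 13 tested genes for receptors that trigger or modulate the burst, the inhibitory Fcgr2b among them, 10 measured higher and 3 lower. Their median was 0.50, and 0 passed (limma, 1 at an unadjusted p under 0.05). Without wild-type replicate 1, 11 of 13 measured higher, with a median of 0.33. Fpr2, a formyl peptide receptor that senses bacterial products, read 4069 and 1793 in knockout mice, against 586.8 and 1560 in wild-type mice (log2 difference 1.50, SE 0.60, limma adjusted p = 0.992). Fcgr2b, the inhibitory receptor for IgG, differed by 1.08, and Csf2ra, a subunit of the GM-CSF receptor, by 1.07. Fcer1g, the signalling chain shared by activating Fc receptors, differed by 0.91 on a probe set whose name ending marks probes shared within a family. Its other probe set was too dim to test. Without wild-type replicate 1 the difference was 0.79 for Fpr2, 0.33 for Fcgr2b and 0.37 for Csf2ra, and without knockout replicate 1 it was 0.91 for Fpr2 and 0.39 for Fcer1g. For each of these 4 genes both knockout arrays lay above both wild-type arrays. They were named for the smallest unadjusted limma p of their list, so this separation follows in part from that choice. Groups with knockout higher and no overlap occurred for 8 of the 13 receptors and 0 of the 5 tested oxidase probe sets, against 14.3% of all tested probe sets.

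Of 14 tested transcription factors of the oxidase genes, 9 measured higher and 5 lower, with a median of 0.08, and 0 passed (limma, 0 also at an unadjusted p under 0.05). Without wild-type replicate 1, 6 of 14 measured higher, with a median of -0.03, and without wild-type replicate 2 it was 10, with a median of 0.42. Gfi1, a repressor needed for neutrophil development, differed by 1.03, Cebpd by 0.91, Fos by 0.81 and Stat3 by 0.59. Another tested Stat3 probe set was at 0.19, and the other Fos probe set was too dim to test. Without wild-type replicate 1 Gfi1 was at 0.45, Cebpd at 0.14 and Stat3 at 0.019, and without knockout replicate 1 Fos was at 0.14. Spi1, which encodes PU.1 and was picked with its values in view, read 3829 and 2779 in knockout mice, against 2349 and 2452 in wild-type mice. The groups did not overlap, and the difference was 0.44 (SE 0.40, limma adjusted p = 0.992), opposite in sign to that of the tested oxidase probe sets, and 0.21 without knockout replicate 1.

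Markers of the cells that carry the oxidase are given beside it. Of 14 tested neutrophil genes, 13 gave a positive difference and 1 a negative one, with a median of 1.25, which was 1.96 when wild-type replicate 1 was left out and 0.37 when replicate 2 was. Their summed intensity was 540042 and 600370 in knockout mice, against 720194 and 181770 in wild-type mice, so the groups overlapped on this sum. Gene by gene, the groups were separate with knockout higher for 9 of the 14, against 14.3% of all tested probe sets. They were separate with knockout lower for 1 of the 14, against 12.2% of all. None of the neutrophil genes on the array was under the floor on all arrays, and 0 passed (limma, 7 at an unadjusted p under 0.05). Ly6g, a surface marker of mature neutrophils, read 1468 and 1755 in knockout mice, against 639 and 685.5 in wild-type mice.

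Of 12 tested monocyte and macrophage genes, 7 measured higher and 5 lower, with a median of 0.17, which was -0.09 with 5 of 12 higher when wild-type replicate 1 was left out. Their summed intensity was 167388 and 166008 in knockout mice, against 139965 and 160593 in wild-type mice. Siglec1, a marker of macrophages along the inner edge of the marginal zone, was under the floor on all 4 arrays. Csf1r, the receptor that sustains macrophages, picked like Ly6g with its values in view, read 24559 and 25539 in knockout mice, against 26915 and 26459 in wild-type mice. Adgre1, a marker of red pulp macrophages and likewise picked, read 2349.9 and 2964 in knockout mice, against 123.5 and 3644 in wild-type mice. Adgre1 was thus lowest and Csf1r highest in wild-type replicate 1, which was the lowest array for 5 and the highest for 3 of the 12 genes.

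Lymphocyte genes are the other part of the comparison. Of 10 tested B cell genes, 2 measured higher and 8 lower, with a median of -0.49, and of 9 tested T cell genes, 1 measured higher and 8 lower, with a median of -0.50. These medians were -0.19 and -0.22 when wild-type replicate 1 was left out, and -0.66 and -0.79 when replicate 2 was. The groups were separate with knockout lower for 6 of the 10 B cell and 5 of the 9 T cell genes, against 12.2% of all tested probe sets. They were separate with knockout higher for 1 of the 10 and 0 of the 9, against 14.3% of all. Wild-type replicate 1 was the highest array for 6 of 10 B cell and 8 of 9 T cell genes, and it was so together with knockout replicate 2 below knockout replicate 1 for 4 and 7 of them. Summed B cell intensity was 194279 and 155548 in knockout mice, against 329111 and 179658 in wild-type mice, and summed T cell intensity was 54075 and 44870 against 104247 and 57746 in the same order. No B cell or T cell gene on the array was under the floor on all 4 arrays. The part of these cell types and of RNA quality in the values of the oxidase probe sets was not tested.

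Dendritic genes had 3 higher and 4 lower, NK genes 2 higher and 1 lower, erythroid genes 1 higher and 6 lower, and platelet genes 3 higher and 0 lower in knockout spleen. These small counts turned on single arrays: without knockout replicate 1, 5 of 7 erythroid and 5 of 7 dendritic genes measured higher, and without wild-type replicate 1, 1 of 3 NK, 3 of 7 erythroid and 5 of 7 dendritic genes did. Exocrine pancreas genes had 0 higher and 5 lower, with summed intensities of 5640 and 6513 in knockout mice, against 66755 and 16322 in wild-type mice, highest in wild-type replicate 1 as for the members. In none of the marker lists did a gene pass (limma adjusted p under 0.05). An unadjusted p under 0.05 was reached by 2 B cell, 2 T cell, 2 platelet and 5 pancreas genes beside the 7 of neutrophils.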

How the data were processed

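The deposited table holds linear intensities from 1-colour arrays, 1 for each probe set and array. No software or scaling by the authors is given in the sources used here. The 2% trimmed means were 2502 on all 4 arrays, so the intensities were used without further scaling, and no 2 arrays were identical. Values under the pooled 25th percentile (185) were raised to it and log2 was taken. After removal of 66 control probe sets, the 7453 with a mean above the 40th percentile were tested with limma 3.58.1 in R 4.3.3 (lmFit, eBayes with an intensity trend, two-sided, Benjamini-Hochberg over all tested probe sets at 0.05), without covariates. The number of arrays limits the precision. Symbols came from the platform annotation, updated by gene identifier (10833 probe sets with 1 symbol, 396 with several, 1193 with none). Lists used the brightest probe set of each gene, and share some genes.

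Members and lists were chosen with earlier results of these data known. The promoter motifs, the array order of the members, Spi1, Ly6g, Csf1r and Adgre1 were chosen after values were seen. By rule, the members, Nfe2l2, the 4 genes of each oxidase list with the smallest p and the 3 genes nearest in pattern to the brightest tested probe set of Cyba, Ncf1, Ncf4 and Rac2 were named. The procedure was tested on simulated data in which the planted differences were larger than those of the members. That test therefore says nothing on how well differences of the members' size are found. As alternatives, the threshold, floor, filter, scaling, variance model and replicate block were varied and each array was left out. Python 3.11.15 and matplotlib 3.10.9 drew the figures.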

Additional observations from a re-analysis of the deposited data

How the results depend on the processing

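Over 14 alternatives, the 5 tested oxidase probe sets gave 70 refitted differences, of which 68 kept their direction and 2 reversed. Changing the filter, variance model, replicate block or floor percentile left all 5 differences unchanged, so those refits could not turn a direction. Among the alternatives with all 4 arrays, the lowest limma adjusted p was 0.979. With 1 array left out, the second Cyba probe set ranged from -0.62 to 0.30 and Ncf4 from -0.54 to 0.040, both positive only without wild-type replicate 1, and the first Cyba probe set from -0.72 to -0.06. Scaling by quantile and loess took the second Cyba probe set from -0.16 to -0.008 and -0.06, and Rac2 from -0.25 to -0.16 and -0.12. The number of member probe sets with a lower knockout mean, an alternative chosen after seeing the data, ranged from 3 to 6, with 3 only without wild-type replicate 1. The floor at the 40th percentile brought Cybb to a difference of -0.002. The count of 4 probe sets called over the whole array was 0 without the filter and 7 at an adjusted p under 0.10, and ranged from 3 to 13 with 1 array left out (10 and 13 without knockout replicates 1 and 2). With the replicate number as a block it was 36, and no member was among them. That number has no stated pairing, and deviations of same-numbered arrays from their group means correlated at 0.04 over 7453 probe sets.

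Among the other named genes, leaving out 1 array ranged from -0.22 to 1.14 for Rac1, -0.21 to 0.018 for Cybc1, -0.31 to 0.16 for Rap1a, -0.23 to 0.35 for Rap1b, -0.12 to 1.96 for Btk and -0.47 to 3.79 for Adgre1. Without changing sign, the lowest value with 1 array left out was 0.019 for Stat3, 0.14 for Cebpd and Fos, 0.45 for Gfi1, 0.33 for Fcgr2b, 0.37 for Csf2ra, 0.39 for Fcer1g, 0.79 for Fpr2, 0.40 for Tiam1, 0.36 for Fgr and 0.21 for Spi1. Rap1b was also -0.0017, -0.014 and -0.00059 with median, quantile and loess scaling, and Csf1r was 0.018 with quantile scaling. The adjusted p of Nfe2l2, 0.0199, was 0.713 without the filter, and 0.0994 and 0.0582 without wild-type replicates 1 and 2. The cause of these shifts was not tested.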
